A study of Homo sapiens with 4 samples.

Results

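Nuclear genes of oxidative phosphorylation were compared between MDA-MB-231 cells treated with a control siRNA and cells depleted of AXL. MDA-MB-231 is an established triple-negative breast cancer (TNBC) line with mesenchymal features. Members were chosen by symbol among the protein-coding genes of the table: the NDUFA, NDUFB, NDUFC, NDUFS and NDUFV genes of complex I, SDHA to SDHD of complex II, the UQCR genes and CYC1 of complex III, CYCS, the COX4 to COX8 genes of complex IV and the ATP5 genes of complex V. The rule took no expression values except to keep the more abundant row of a repeated symbol, and 110 matching rows gave 91 genes of the 63677 in the table. A few symbols that match the rule are readthrough loci or relatives of a subunit rather than subunits, such as ATP5S and COX7A2L.

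The respiratory chain of the inner mitochondrial membrane passes electrons from NADH (complex I) and succinate (complex II) through complex III and the small carrier cytochrome c to oxygen at complex IV, and complex V, the ATP synthase, uses the resulting proton gradient to make ATP. Most subunits are encoded in the nucleus and imported, while a small core set is encoded in mitochondrial DNA. Dedicated assembly factors put the complexes together, and nuclear regulators such as NRF1, GABP and the PGC-1 coactivators are known to act on many of these genes.

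The study depleted the receptor tyrosine kinase AXL to obtain a gene expression signature of its loss. RNA-seq of total RNA was deposited for 2 libraries of cells given the control siRNA (siCt) and 2 libraries of cells given a pool of siRNAs against AXL (siAXL), both introduced by lipid transfection. The time between transfection and harvest, and whether the 2 libraries of a group came from separate cultures, are not given in the sources used here, so p-values measure the spread between these libraries, which may be technical. Read totals recovered from the deposited values were 39574387 to 44585773 per library.

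AXL itself had normalized counts of 29189 and 30617 in siCt and 8658 and 7141 in siAXL, and fell to 26.4% of the siCt mean (log2 fold change −1.93, SE 0.092, limma adjusted p = 0.000585). Among markers of the line, VIM, CD44 and EGFR were abundant in all 4 libraries. EGFR rose, with 7355 and 7136 in siCt and 12921 and 15003 in siAXL (log2 fold change 0.94, limma adjusted p = 0.00166). VIM and CD44 did not pass (limma adjusted p = 0.248 and 0.548). Of 5 luminal markers, ESR1, PGR and FOXA1 had at most 7 reads in any library, GATA3 had 255 to 316 and the keratin KRT8 had 16135 to 19531 and fell. The junction markers were both detected, EPCAM with 577 to 785 reads and CDH1 with 23 to 94. CDH1 fell to 32.3% of siCt (limma adjusted p = 0.00847). EPCAM went the other way, to 124.6%, and did not pass (log2 fold change 0.32, limma adjusted p = 0.0513). The immune markers PTPRC and CD3E had at most 17 and 1 reads and the endothelial marker PECAM1 had 0. The part of the changes in EGFR, KRT8 and CDH1 in the results for oxidative phosphorylation was not tested.

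Of the 91 genes, 81 had enough reads to be tested. The normalized count used throughout is a gene's reads divided by the library's size factor, and a gene is said to have fallen or risen when limma's Benjamini-Hochberg adjusted p over all 16064 genes tested was under 0.05. By that test 8 members fell in siAXL (CYCS, ATP5G1, NDUFV2, NDUFA12, NDUFA8, CYC1, COX5A and ATP5B), 1 rose (UQCR10) and 72 did not pass. The members that fell were 9.88% of those tested, near the 7.91% of all genes tested that fell. The 1 that rose was 1.23% of the members, where 10.8% of all genes tested rose. Among the 13241 protein-coding genes tested, 9.24% fell and 12.6% rose. Scaled by library size alone, 14 members fell (17.3%, with 10.9% of all genes), and by library size without mitochondrially encoded genes 15 did (18.5%, with 11.3%).

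The changes were small and most members sat slightly below 0. The median log2 fold change of the 81 was −0.076, against −0.0022 for all genes tested, and 67 of the 81 had a negative value where 8083 of the 16064 genes did. Both siAXL libraries were below both siCt libraries for 43 members, or 53.1%, where 30.5% of all genes tested were so placed. Both were above for 6 members, or 7.41%, where 30.6% of all genes were. The groups overlapped for the remaining 32, and for 6238 of the 16064 genes tested. For 44 members the log2 fold change was smaller than 0.1 in either direction, and their typical precision was a median SE of 0.064 across the 81. In bulk RNA, less transcript in every cell and fewer cells carrying it cannot be told apart.

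The counts moved when single libraries were left out, for members and for all genes alike. Such a fit has 1 library in an arm, which is assumed to vary like the other group. Members that fell numbered 2 without siAXL 1 (2.47%, with 2.57% of all genes), 5 without siAXL 2 (6.17%, with 4.02%), 14 without siCt 1 (17.3%, with 10.8%) and 7 without siCt 2 (8.64%, with 5.82%). The single member that rose no longer passed without siAXL 2. The median stayed negative in each of these, from −0.12 without siAXL 2 to −0.040 without siAXL 1.

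**Figure D1:**
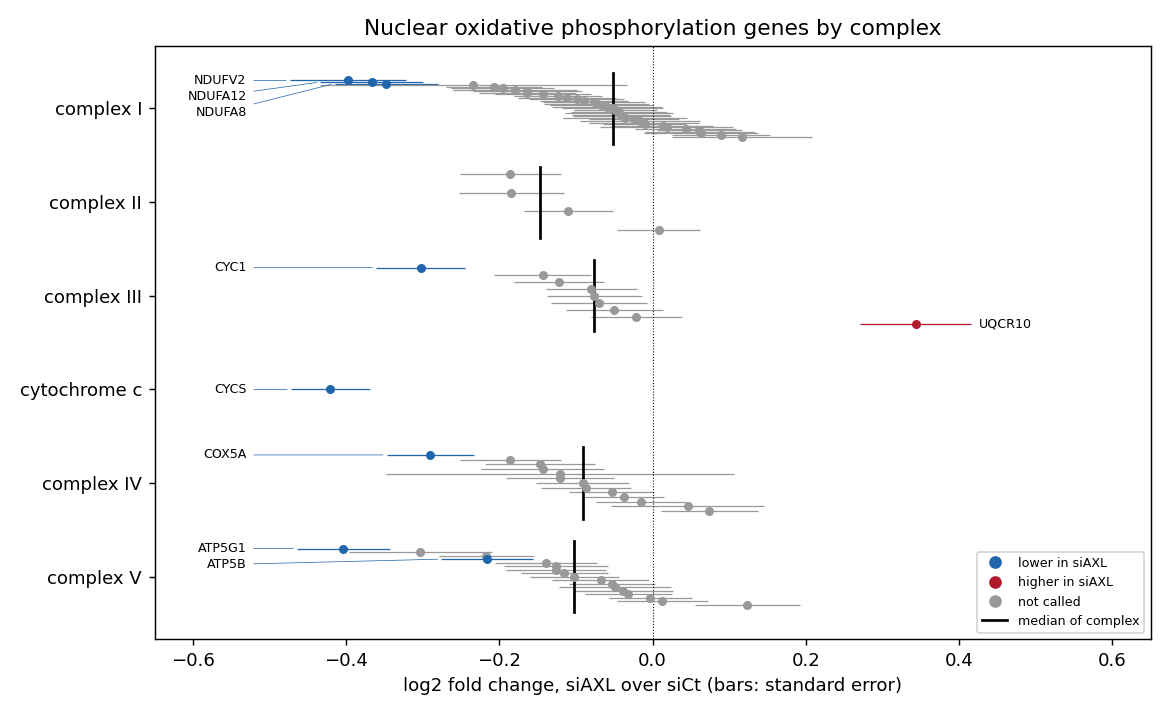
Log2 fold change (siAXL over siCt, horizontal axis) of the 81 members tested, 1 point per gene, by complex (vertical axis). Horizontal bars are standard errors, black lines medians of a complex, and blue and red points mark genes that fell or rose by limma. The medians of the 5 complexes lie between −0.15 and −0.05, and UQCR10 is the single red point, at 0.34.

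Promoter sequence from RefSeq (GRCh38.p14, 250 bases before to 50 after the gene's start) was matched for 69 of the 91 members and for 7 of the 9 that changed. The windows of 5 of those 7 held one of the words searched, and these stretches are shown because they belong to the genes whose transcripts changed. Capitals mark CCAAT or its reverse complement ATTGG, the word bound by NF-Y, or, for NDUFA8, the NRF1 word CGCATGCGC, which here overlaps its own reverse complement. ATP5G1 (ATP5MC1 in RefSeq, chr17:48892587-48892786, plus strand) carried CCAAT 4 times in the 200 bases before its start. CYCS (chr7:25125361-25125420, minus strand) carried the word once in each orientation. NDUFA12 (chr12:95003838-95003887, minus strand) and UQCR10 (chr22:29767159-29767198, plus strand) carried it once. The NDUFA8 stretch (chr9:122159774-122159819, minus strand) ends 6 bases past the start.
ATP5G1: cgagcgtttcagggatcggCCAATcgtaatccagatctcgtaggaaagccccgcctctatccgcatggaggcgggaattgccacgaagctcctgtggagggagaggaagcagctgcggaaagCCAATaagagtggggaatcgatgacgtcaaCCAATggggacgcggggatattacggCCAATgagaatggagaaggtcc
CYCS: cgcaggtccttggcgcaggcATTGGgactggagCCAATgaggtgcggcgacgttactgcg
NDUFA12: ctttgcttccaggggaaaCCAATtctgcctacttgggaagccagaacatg
NDUFA8: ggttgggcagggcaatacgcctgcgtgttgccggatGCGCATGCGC
UQCR10: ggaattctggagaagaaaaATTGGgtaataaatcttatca

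Words were searched on both strands of the 300-base windows of the 65 members that were tested and matched. CCAAT was in 23 of them, 35.4%, about its share in all 27305 promoters (35.7%) and in those of tested genes (36.4%). The NRF1 word was in 10 members (15.4%), against 2.1% of all promoters and 3.66% of those of tested genes. CCGGAAGT, a word of ETS factors such as GABPA, was in 9 (13.8%, against 4.44% of all promoters and 8.43% of those of tested genes). AAGATGGCG, a YY1 word, was in 8 (12.3%, against 1.85% and 3.8%). TCAAGGTCA, a word of ERR alpha, was in 1 (1.54%, against 0.359% and 0.22%). Of the members that changed, NDUFA8 had the NRF1 word, and none of the 7 windows held the ETS, YY1 or ERR alpha word. The median log2 fold change was −0.10 for members with the NRF1 word and −0.059 for members without it, and −0.115 with CCAAT and −0.056 without it. It was −0.112 with the ETS word and −0.0704 without it, and −0.0955 with the YY1 word and −0.0732 without it. The 1 member with the ERR alpha word had −0.184, and those without it a median of −0.0715. These are descriptions of letters in short windows and were not tested against the expression values.

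Cytochrome c, encoded by CYCS, carries electrons from complex III to complex IV and also takes part in apoptosis when released from mitochondria. CYCS had normalized counts of 8469 and 8637 in siCt and 6351 and 6428 in siAXL. The groups were separated by far more than the spread within either, and CYCS fell to 74.7% of the siCt mean (log2 fold change −0.42, SE 0.052, limma adjusted p = 0.00384). Its 41 pseudogene rows in the table held 43 reads over the 4 libraries, against 29884 for CYCS itself. CYCS and ATP5G1 were the members that passed the test under each of the 15 analysis settings tried.

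Complex I, the NADH dehydrogenase, gave 39 genes, of which 37 were tested, 3 fell and none rose by limma, edgeR or DESeq2. The share that fell, 8.11%, was near the 7.91% of all genes tested. There were 6 of the 37 with an unadjusted p under 0.05, where 5468 of all 16064 genes tested had one. The complex had a median log2 fold change of −0.052. NDUFV2, a core subunit of the NADH-oxidising module that holds an iron-sulfur cluster, had 811 and 846 normalized counts in siCt and 634 and 623 in siAXL. The groups did not overlap, and NDUFV2 fell to 75.9% of siCt (log2 fold change −0.40, SE 0.076, limma adjusted p = 0.0149). The pseudogene NDUFV2P1 held 684 reads, 23.5% of the reads of NDUFV2, so reads of the pair could have been split, and it had values of 199 and 178 in siCt and 150 and 155 in siAXL. NDUFV2 kept its fold but not its call without siAXL 1 (log2 fold change −0.41, limma adjusted p = 0.0559) and without siAXL 2 (−0.39, 0.0646).

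The other members of complex I that fell are accessory subunits. NDUFA12 had 3070 and 3255 in siCt and 2353 and 2554 in siAXL, and fell to 77.6% of siCt (log2 fold change −0.37, SE 0.067, limma adjusted p = 0.0130). NDUFA8, an accessory subunit facing the intermembrane space, had 3113 and 3265 in siCt and 2392 and 2624 in siAXL, and fell to 78.6% (log2 fold change −0.35, SE 0.068, limma adjusted p = 0.0159). In both genes siAXL 1 was the lowest library and the groups were well apart. Without siAXL 1 neither passed, with log2 fold changes of −0.31 for NDUFA12 (limma adjusted p = 0.0652) and −0.28 for NDUFA8 (0.0828).

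The 7 core subunits of complex I, which carry the flavin and the iron-sulfur clusters, had a median log2 fold change of −0.11. The 30 accessory subunits tested had a median of −0.048. Those that fell were 1 of 7 (14.3%) and 2 of 30 (6.67%), where 7.91% of all genes tested fell. The difference between the core and accessory sets was not tested. NDUFV1, the core subunit that binds the flavin and partners NDUFV2, did not share its direction, with 4093 and 3859 in siCt and 4279 and 3919 in siAXL. These groups overlapped and the log2 fold change was 0.043 (limma adjusted p = 0.697). NDUFS7, another iron-sulfur subunit, was the member nearest to passing in this complex, with 1582 and 1620 in siCt and 1369 and 1405 in siAXL. Its groups did not overlap (log2 fold change −0.21, limma adjusted p = 0.0609). At the upper end NDUFC1 had a log2 fold change of 0.12 (limma adjusted p = 0.42), and its 2 groups overlapped.

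Complex II, succinate dehydrogenase, which also serves the citric acid cycle, had no subunit past the test among its 4 by limma, edgeR or DESeq2. Of the 4, 2 had an unadjusted p under 0.05, where 5468 of all 16064 genes tested had one. SDHB, the iron-sulfur subunit, had 3324 and 3545 in siCt and 2909 and 3133 in siAXL (log2 fold change −0.19, SE 0.066, limma adjusted p = 0.0926). SDHD, a membrane anchor, had 3220 and 3527 in siCt and 2875 and 3060 in siAXL. In both, each siAXL library was below each siCt library. SDHA, the flavoprotein, had 5587 and 5823 in siCt and 5669 and 5801 in siAXL, so that its siAXL values fell between the siCt values. Its log2 fold change was 0.0078 and turned negative when scaled by library size alone (−0.021).

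Complex III, the cytochrome bc1 complex, held members that moved in opposite directions. The 1 that fell and the 1 that rose were each 11.1% of its 9 members, where 7.91% and 10.8% of all genes tested did. CYC1, the cytochrome c1 subunit that hands electrons to cytochrome c, had 4721 and 4992 in siCt and 3868 and 4003 in siAXL, and fell to 81.1% of siCt (log2 fold change −0.30, SE 0.058, limma adjusted p = 0.0151). UQCR10, a small accessory subunit, had 1591 and 1614 in siCt and 1925 and 2149 in siAXL, and rose to 127% (log2 fold change 0.34, SE 0.072, limma adjusted p = 0.0208). Both genes had groups that did not overlap, and each of the 2 calls was lost when 1 library was left out. CYC1 had a log2 fold change of −0.28 without siAXL 1 (limma adjusted p = 0.0788), and UQCR10 one of 0.26 without siAXL 2, its highest library (0.108).

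The other 7 members of complex III had log2 fold changes from −0.14 (UQCRC2) to −0.022 (UQCRC1), both being core proteins, and none passed. UQCRFS1, the Rieske iron-sulfur protein, had 2588 and 2605 in siCt and 2380 and 2550 in siAXL, a log2 fold change of −0.076. Its groups did not overlap, but the siAXL libraries lay further from each other than the nearer of them lay from siCt.

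Complex IV, cytochrome c oxidase, gave 18 genes, of which 13 were tested, with a median log2 fold change of −0.091. The 1 that fell was 7.69% of those tested, near the 7.91% of all genes tested. COX5A, a nuclear subunit on the matrix side, was the member that fell, with 3290 and 3425 in siCt and 2717 and 2772 in siAXL. The groups were clearly apart at 81.8% of siCt (log2 fold change −0.29, SE 0.057, limma adjusted p = 0.0162), and the fold stayed while the call was lost without siAXL 1 (−0.28, limma adjusted p = 0.0845) or without siAXL 2 (−0.30, 0.0579). COX6C, at the other end of the complex, had 3918 and 4225 in siCt and 4172 and 4396 in siAXL. Its groups overlapped (log2 fold change 0.074, limma adjusted p = 0.46).

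Several complex IV subunits exist as a common and a tissue-restricted form, and the table read almost only the common forms. COX4I1 had 5866 and 5956 in siCt and 5665 and 5852 in siAXL, while its lung and hypoxia-related partner COX4I2 had 0 reads in every library. The muscle forms COX6A2 and COX7A1 and the testis form COX8C also had 0 reads in every library, as did NDUFA4L2, the hypoxia-induced partner of NDUFA4. A count of 0 allows up to 3 reads, or a CPM of 0.0673 to 0.0758, in these libraries.

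The common partners did not pass the test. COX6A1, COX6B1, COX7A2, COX7B and COX8A had log2 fold changes of −0.091, −0.087, −0.19, −0.15 and −0.14, and NDUFA4, grouped with complex I by symbol but known as a subunit of complex IV, had one of −0.036. COX7A2 was the closest, with 5751 and 6223 in siCt and 5068 and 5456 in siAXL (limma adjusted p = 0.0935). COX6B2, a testis form, had 6, 7, 6 and 6 reads in siCt 1, siCt 2, siAXL 1 and siAXL 2 and was not tested. COX7B2 passed the filter on low counts with 37.4 and 42.3 in siCt and 33.0 and 40.3 in siAXL, groups that overlapped (log2 fold change −0.12, SE 0.227). Per kb of exon COX7B2 was at 60.0 normalized counts in siCt and COX7B at 1537. The small signs of COX4I1, COX6A1, NDUFA4 and COX7B2 were not stable, and turned positive when trends with gene length and GC content were removed (COX4I1 0.0044, COX6A1 0.022, NDUFA4 0.026) or without siAXL 1 (COX7B2 0.019).

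Complex V, the ATP synthase, gave 20 genes, of which 17 were tested, with a median log2 fold change of −0.10. The 2 that fell were 11.8% of those tested, where 7.91% of all genes tested fell. ATP5G1 encodes the c subunit that forms the rotating ring in the membrane. It had 2365 and 2359 in siCt and 1741 and 1830 in siAXL, and fell to 75.6% of siCt (log2 fold change −0.40, SE 0.060, limma adjusted p = 0.00694). The 2 siCt libraries were almost equal, and both siAXL libraries were far below them. Its 8 pseudogene rows held 0 reads.

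The mature c subunit is also made from ATP5G2 and ATP5G3, which differ from ATP5G1 in the targeting peptide. ATP5G2 had 3637 and 4065 in siCt and 3587 and 3850 in siAXL, and ATP5G3 had 5774 and 6085 in siCt and 5687 and 5913 in siAXL. In both genes the groups overlapped, with log2 fold changes of −0.049 and −0.032 that turned positive without siCt 2 (0.031 and 0.0061). Per kb of exon, ATP5G1 was at 3458 normalized counts in siCt, ATP5G2 at 1716 and ATP5G3 at 1045. The merged exons of all their annotated transcripts span 683, 2244 and 5673 bases. Before division by length the order was the reverse, with siCt means of 2362, 3851 and 5930. Differences between the fold changes of ATP5G1, ATP5G2 and ATP5G3 were not tested.

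ATP5B encodes the catalytic beta subunit of the F1 sector. It had 23426 and 24836 in siCt and 20283 and 21270 in siAXL, groups that did not overlap, and fell to 86.1% of siCt (log2 fold change −0.22, SE 0.060, limma adjusted p = 0.0477). This was the smallest change to pass, and the call was lost without siCt 2 (−0.17, limma adjusted p = 0.25), without siAXL 1 (−0.18, 0.247) and without siAXL 2 (−0.25, 0.107). ATP5A1, the alpha subunit that alternates with beta in the F1 ring, had 17901 and 18882 in siCt and 18076 and 19034 in siAXL, overlapping groups with a log2 fold change of 0.013. The 5 F1 subunits had a median of −0.039.

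Just outside the threshold, ATP5F1 (subunit b of the peripheral stalk) had 6900 and 7305 in siCt and 5893 and 6332 in siAXL (log2 fold change −0.22, limma adjusted p = 0.0515), and ATP5S, a coupling factor relative, had 570 and 634 in siCt and 471 and 503 in siAXL (log2 fold change −0.30, limma adjusted p = 0.0646). Neither had overlapping groups. ATP5O, the subunit that joins the stalk to F1, was the highest member of complex V, with 2689 and 2818 in siCt and 2854 and 3152 in siAXL (log2 fold change 0.12, limma adjusted p = 0.255).

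**Figure D2:**
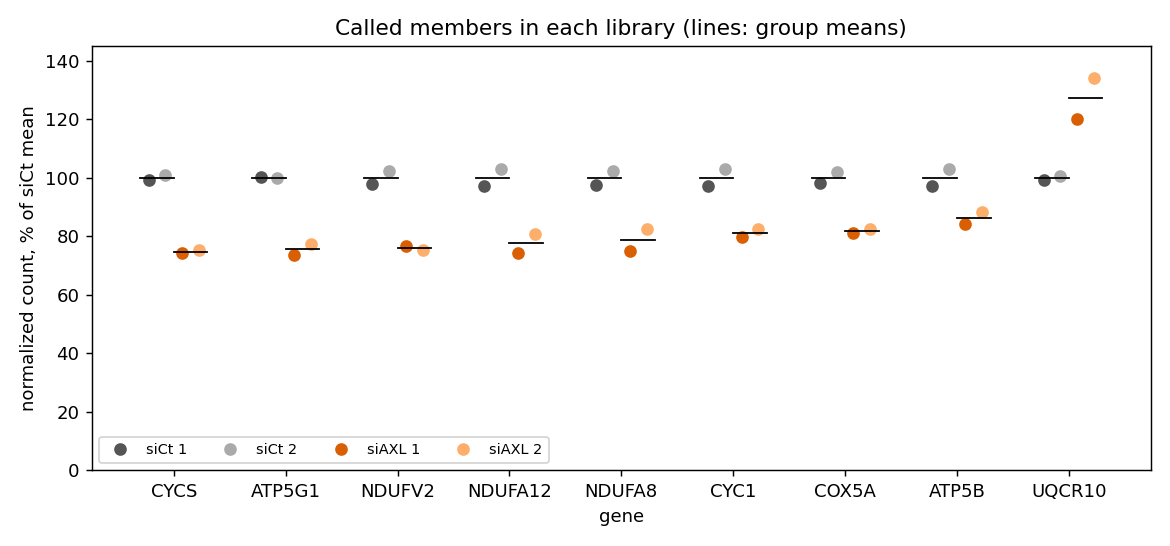
Normalized count of the 9 members that passed the test, as a percent of the siCt mean (vertical axis, starting at 0), in each of the 4 libraries. Dots are libraries and black lines group means. The siAXL means run from 74.7% for CYCS to 86.1% for ATP5B, with UQCR10 at 127%, and in no gene do the libraries of the 2 groups overlap.

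The members not tested otherwise were ATP5EP2 with 5, 1, 1 and 0 reads in siCt 1, siCt 2, siAXL 1 and siAXL 2, ATP5J2-PTCD1 with 3, 2, 7 and 6, NDUFC2-KCTD14 with 1, 0, 2 and 0, and ATP5L2 with 0, 0, 1 and 0. The first and last of these resemble other subunit genes, and the middle pair are readthrough loci that share exons with a subunit gene, so their few reads cannot be placed with certainty. COX6A1P2, listed as protein-coding, had 293 and 284 in siCt and 301 and 295 in siAXL, and reads of COX6A1 could have been split with it.

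Reads of other members could also be shared. Pseudogene rows existed for 39 members, 179 rows in all, of which 24 held reads. By GENCODE exons, 42 members shared bases with another gene, and among the 9 that changed NDUFV2 did so, with AP005263.1 on the same strand, which had 0.5 reads per library on average. NDUFA7 had only 53.7 and 50.9 in siCt and 47.6 and 41.3 in siAXL and shared 75.9% of its exon bases with AC010323.1.

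Levels between genes were compared per kb of exon, with the exons of all annotated transcripts of a gene merged. SDHC has 13566 such bases and COX8A 507. Rankings of genes and complexes per kb therefore depend on the annotated transcripts as well as on the reads. The members were abundant, with a median of 1735 normalized counts per kb in siCt against 247.6 for all genes tested. They were also shorter, with a median exon length of 1621 bases against 3354, and similar in GC content (47.9% against 48.0%). ATP5B was the highest at 13122, followed by NDUFS5 at 11680 and COX8A at 10600, and ATP5S the lowest tested at 55.4. By complex the medians were 1124 for complex I, 1930 for II, 1713 for III, 3326 for IV and 2768 for V. Removing the trends with length and GC content moved the median log2 fold change of the members from −0.076 to −0.043, with that of all genes at −0.011.

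**Figure D3:**
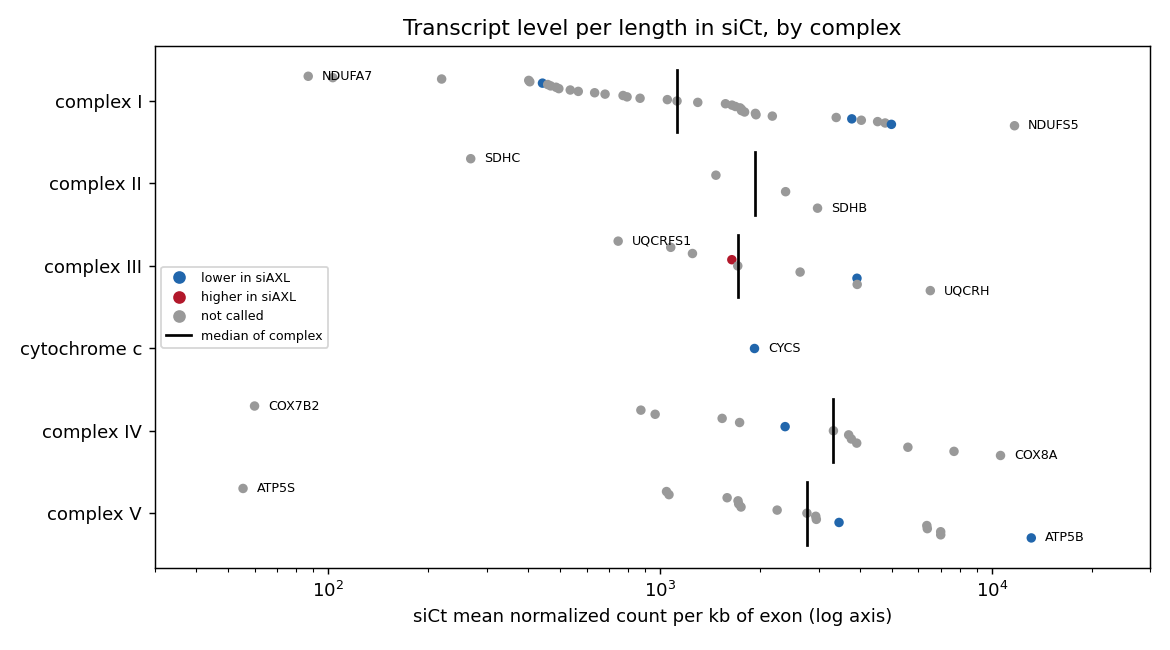
Mean normalized count per kb of exon in siCt (horizontal log axis) for each of the 81 members tested, by complex (vertical axis). Exon length is that of all annotated transcripts of a gene merged. Points are genes, coloured by the limma call, and black lines are medians of a complex. Genes that changed lie across the range, from NDUFV2 at 442 to ATP5B at 13122.

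Factors that assemble the complexes, a list of 55 genes all of which were tested, gave 9 that fell and none that rose by limma. Of the 55, 17 had an unadjusted p under 0.05, where 5468 of all 16064 genes tested had one. None rose by edgeR or DESeq2 either, which had 9 and 7 that fell. Over all genes 7.91% fell by edgeR and 8.57% by DESeq2. The 9 that fell by limma are 16.4% of the list, where 7.91% of all genes tested fell and 10.8% rose. The median log2 fold change was −0.14, and both siAXL libraries were below both siCt libraries for 34 of the 55 (61.8%, with 30.5% over all genes). The count moved strongly when single libraries were left out, as the share of all genes tested that fell also did.

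Complex III assembly stood at a median of −0.29 over its 6 factors. UQCC1, which with UQCC2 acts on newly made cytochrome b, had 5466 and 5406 in siCt and 4442 and 4380 in siAXL (log2 fold change −0.30, SE 0.052, limma adjusted p = 0.0111). LYRM7, a chaperone of the Rieske protein, had 1032 and 1019 in siCt and 762 and 815 in siAXL (log2 fold change −0.38, SE 0.074, limma adjusted p = 0.0160). Both fell with groups that did not overlap, and the calls were lost without siAXL 2 for UQCC1 (−0.29, limma adjusted p = 0.0568) and without siAXL 1 for LYRM7 (−0.33, 0.0893). UQCC2 fell as well (log2 fold change −0.30, limma adjusted p = 0.0189).

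Among the 24 factors of complex IV assembly, CMC2 had 1395 and 1433 in siCt and 1035 and 1145 in siAXL and fell (log2 fold change −0.38, SE 0.075, limma adjusted p = 0.0172). Its call was lost without siAXL 1 (−0.30, limma adjusted p = 0.0925). The other factors that fell were COA4 (−0.25) and COA7 (−0.29) for complex IV, NDUFAF4 (−0.34) and NDUFAF5 (−0.38) for complex I and TMEM70 (−0.27) for complex V. These and UQCC2 complete the 9 and were named after their values were seen.

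Of 15 regulators of mitochondrial biogenesis, 3 fell, 1 rose and 11 did not pass. That is 20% falling and 6.67% rising, where 7.91% and 10.8% of all genes tested did. TFAM, which packages mitochondrial DNA and starts its transcription, had 4395 and 4874 in siCt and 3325 and 3581 in siAXL, and fell to 74.5% (log2 fold change −0.42, SE 0.072, limma adjusted p = 0.0103). GABPB2, a beta subunit of GABP, had 802 and 889 in siCt and 536 and 561 in siAXL (log2 fold change −0.62, SE 0.086, limma adjusted p = 0.00555). The groups of TFAM and GABPB2 were far apart. GABPB1, another beta subunit of GABP, did not pass, with 1147 and 1094 in siCt and 1098 and 1207 in siAXL. Its groups overlapped (log2 fold change 0.039, limma adjusted p = 0.765).

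PPARGC1A, the coactivator PGC-1 alpha, had only 361 and 464 in siCt and 253 and 261 in siAXL, and fell (log2 fold change −0.67, SE 0.136, limma adjusted p = 0.0185). The 2 siCt libraries differed more from each other than the siAXL libraries did. YY1, a zinc finger factor, had 5703 and 5961 in siCt and 6957 and 7298 in siAXL, and rose to 122% (log2 fold change 0.29, SE 0.057, limma adjusted p = 0.0165), a call lost without siAXL 2 (0.26, limma adjusted p = 0.0872).

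NRF1 and GABPA, DNA-binding factors long tied to these genes, had values close together in the 2 groups. NRF1 had 864 and 913 in siCt and 866 and 904 in siAXL, and GABPA had 1854 and 1963 in siCt and 1811 and 1894 in siAXL. The groups overlapped for both.

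Of 6 genes whose products belong to or accompany the complexes but whose symbols the rule did not take, 2 fell (33.3%, where 7.91% of all genes tested fell). HIGD1A, linked to complexes III and IV, had 5584 and 5763 in siCt and 4458 and 4712 in siAXL (log2 fold change −0.31, SE 0.057, limma adjusted p = 0.0138). NDUFAB1, the acyl carrier protein found in complex I, had 2145 and 2057 in siCt and 1712 and 1743 in siAXL (log2 fold change −0.28, SE 0.061, limma adjusted p = 0.0223). In both genes every siAXL library was below every siCt library. Without siAXL 1 the log2 fold changes were both −0.27 (limma adjusted p = 0.0812 for HIGD1A and 0.109 for NDUFAB1), and without siAXL 2 that of NDUFAB1 was −0.29 (0.0769).

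**Figure D4:**
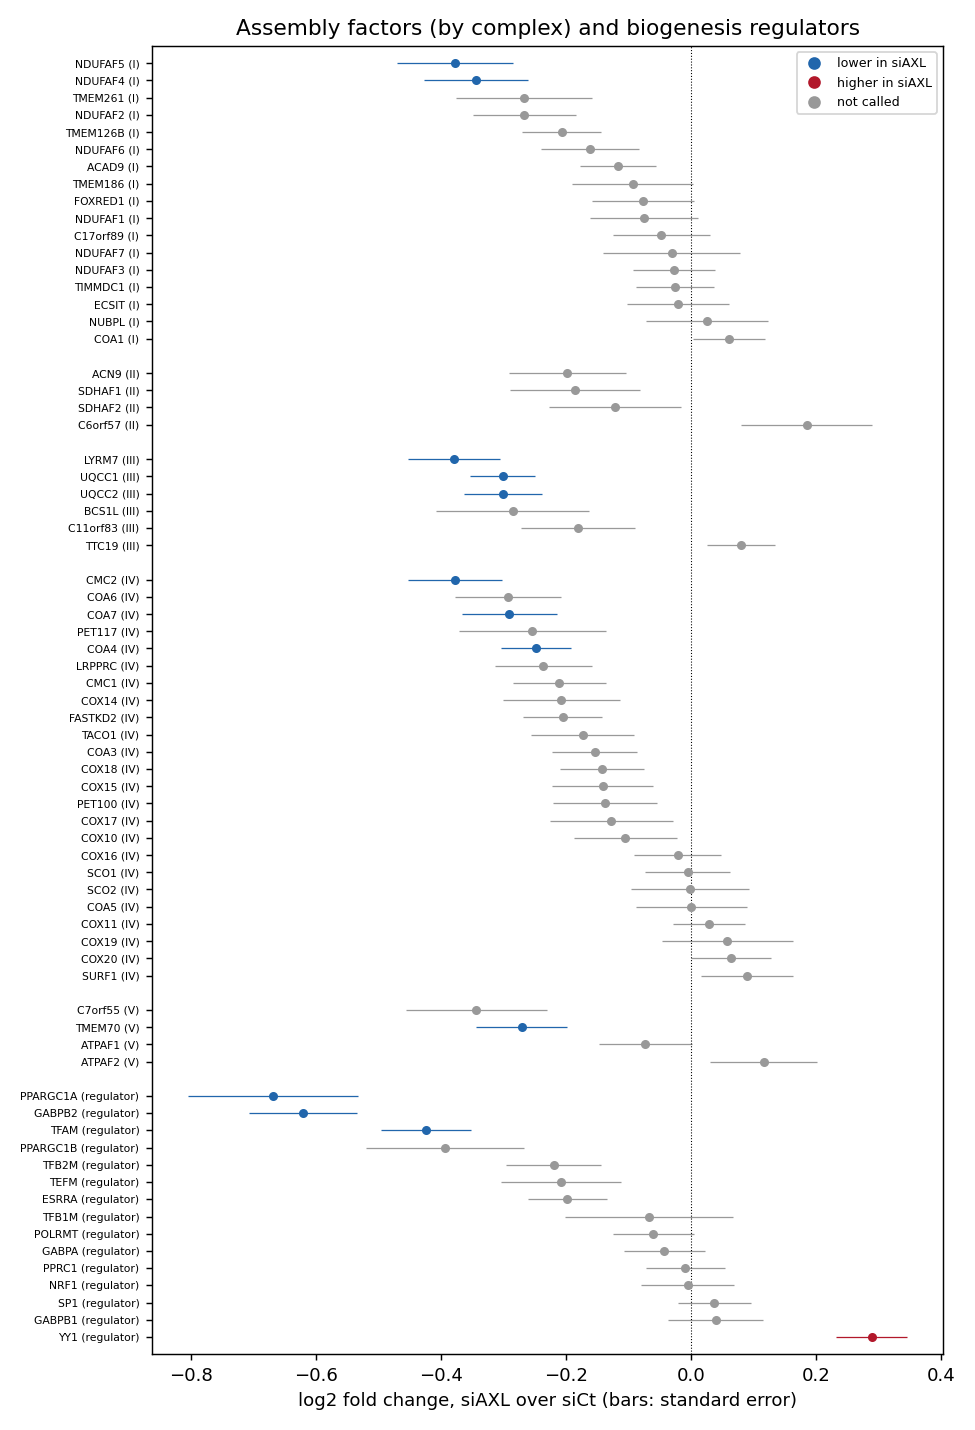
Log2 fold change (siAXL over siCt, horizontal axis) of the 55 assembly factors, grouped by the complex they serve, and the 15 biogenesis regulators, 1 row per gene. Bars are standard errors and blue and red points mark genes that fell or rose by limma. PPARGC1A and GABPB2 lie farthest left, at −0.67 and −0.62, and YY1 is the single red point, at 0.29.

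Of the 13 subunits encoded in mitochondrial DNA, 12 were higher in both libraries numbered 1 than in both numbered 2. Their normalized counts summed to 1362118 for siCt 1, 765479 for siCt 2, 1388911 for siAXL 1 and 836033 for siAXL 2. The exception, MT-ND6, had 1379 and 1580 in siCt and 1238 and 1301 in siAXL. None passed the test by limma, edgeR or DESeq2, where by limma 7.91% of all genes tested fell and 10.8% rose. MT-ND6 alone had an unadjusted p under 0.05, where 5468 of all 16064 genes tested had one. The groups overlapped for 12 of the 13, as they did for 6238 of the 16064 genes. The SEs of those 12 ran from 0.185 (MT-ND3) to 0.322 (MT-CO1), against a median of 0.064 for the nuclear members tested. Changes of the size called among nuclear members could have gone unseen there.

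The nuclear members showed a smaller library pattern in the other direction. Of the 81 tested, 65 were higher in siCt 2 than in siCt 1 and 69 were higher in siAXL 2 than in siAXL 1. Their median log2 difference from the siCt mean was −0.036 for siCt 1, 0.036 for siCt 2, −0.12 for siAXL 1 and −0.040 for siAXL 2, so that the medians of siCt 1 and siAXL 2 lay almost together. The assembly factors were further apart, at −0.027 and 0.027 in siCt and −0.18 and −0.13 in siAXL. Summed over the 81, normalized counts were 295160 and 309463 in siCt and 275661 and 289359 in siAXL, 93.4% of the siCt mean. The part of the mitochondrial share of reads, or of what the replicate number stands for, in these values was not tested.

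**Figure D5:**
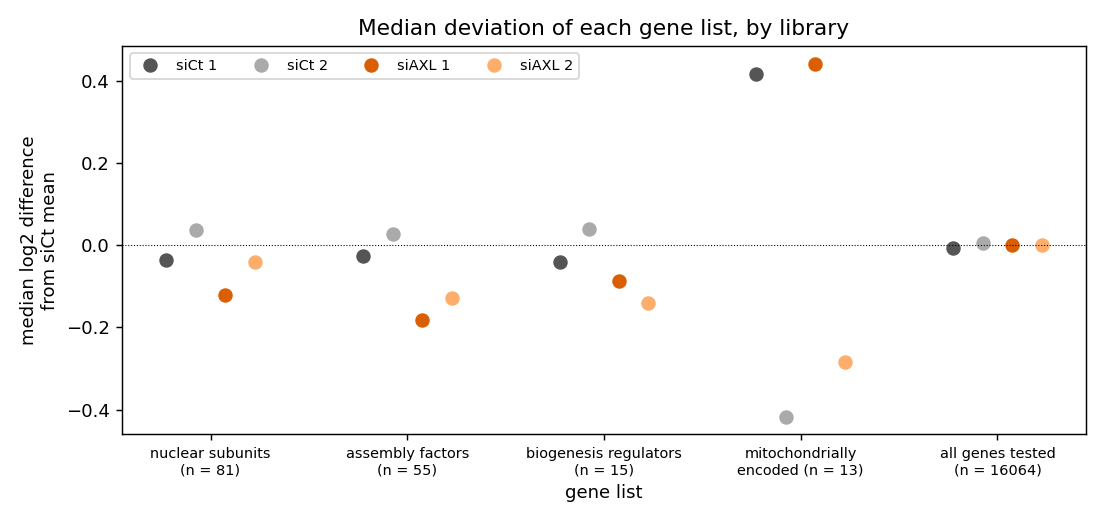
Median log2 difference from the siCt mean (vertical axis) of the genes in each list (horizontal axis), 1 dot per library. The nuclear subunits span −0.12 to 0.036 and the assembly factors −0.18 to 0.027, while the median of the mitochondrially encoded subunits is high in both libraries numbered 1 and low in both numbered 2.

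A word in the 3′ untranslated region, CACATCA, was also looked up, having been taken up after earlier results of these data. It occurred in 6 of the 80 members with an annotated region and in none of the 9 that changed. Over all tested genes with such a region it occurred in 1470 of 12998. The median log2 fold change was −0.012 with it and −0.078 without it, where over 12998 genes the medians were 0.11 with it and −0.0094 without it.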

How the data were processed

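RNA-seq reads of 2 siCt and 2 siAXL libraries had been counted per gene by the authors. The deposited signal values are read counts divided by DESeq2 size factors, and all were whole multiples of 1 read's value within 0.01 reads, so reads were recovered. The submitters' processing notes name CASAVA 1.8, TopHat2 2.0.10, HTSeq 0.5.3, DESeq2 1.4.5 and GRCh37. The annotation release and strand setting are not given in the sources used here. Columns of the authors' own comparison (mean, log2 fold change, its standard error, statistic and p-values) were not used.

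Genes passing edgeR's filterByExpr (16064) were tested on log2(normalized count + 1) with limma 3.58.1 (trend, R 4.3.3), 2-sided, over all 4 libraries without covariates. Fold changes are on that scale. With 2 libraries per group, precision rests on spread shared across genes. The code was tested on simulated data. Alternatives were 2 pseudocounts, no filter, 3 scalings, edgeR 4.0.16, DESeq2 1.42.0, a replicate block, each library left out, a stricter threshold and a curated list. Replicates of a group differed by more than sampling noise (mean chi-square per gene 21.6 for siCt and 19.6 for siAXL). That mean weighs most on genes with many reads, such as the mitochondrially encoded ones, and need not describe a typical gene.

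Named genes were AXL, every member that changed, the extremes of each complex, paired isoforms, untested members and the 3 strongest of each further list. Others, such as subunits paired with these or just outside the threshold, were named after their values were seen. Members and lists were chosen with earlier results of these data known. Lengths, GC and overlaps came from GENCODE 29 by Ensembl ID (97.4% of genes tested), promoters from RefSeq GRCh38.p14.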

Additional observations from a re-analysis of the deposited data

How the results depend on the processing

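Members that fell numbered 8 as reported and 9 with TMM, edgeR or DESeq2, but 3 without the filter on low counts, 14 when scaled by library size alone, 15 by library size without mitochondrially encoded genes, 2 at an adjusted p under 0.01, and 2 to 14 with 1 library left out. Those that rose went from 1 to 0 without the filter and at 0.01, and were 0 to 1 with 1 library left out. Assembly factors that fell went from 9 to 1 without the filter, 14 with either library size scaling, 0 at 0.01, and 1 to 14 with 1 library left out. Regulators that fell went from 3 to 1 without the filter and 1 at 0.01, and those that rose from 1 to 0 in both and 0 to 1 with 1 library left out. A stricter threshold lowers a count by construction, and the cause of the other shifts was not tested. Without the filter 27108 genes were tested, of which 757 rose and 340 fell. There 3.7% of members fell, with 1.25% of all genes. With TMM or edgeR 11.1% of members fell, with 7.88% and 7.91% of all genes. DESeq2 had 11.4% of members falling, with 8.57% of all genes. Over all genes 1735 rose and 1271 fell as reported, 1536 and 1745 by library size, and 1509 and 1808 without mitochondrially encoded genes. Samples of the same number deviated together (Pearson r = 0.271 across genes), but with 2 pairs this does not show that the numbers pair the samples. The fit with the replicate number as a block called 3737 genes higher and 3573 lower. Among members it called 32 lower (39.5%, with 22.2% of all genes) and 2 higher. Among the 55 assembly factors it called 27 lower and 1 higher, and among the 15 regulators 7 lower and 1 higher. Removal of length and GC trends, added after seeing the data, left 10 members lower, lost ATP5B (limma adjusted p = 0.0581) and turned COX4I1 to 0.00444, COX6A1 to 0.022 and NDUFA4 to 0.0255. SDHA turned to −0.0214 and −0.0196 with the 2 library size scalings. Leaving out 1 library turned the sign of SDHA (−0.022 without siCt 1 to 0.0376, with −0.00884 without siAXL 2), NDUFA4 (−0.125 to 0.0525 without siCt 2, with 0.038 without siAXL 1), ATP5G2 (−0.13 to 0.031 without siCt 2, with 0.00173 without siAXL 1), ATP5G3 (−0.0695 to 0.00608 without siCt 2) and COX7B2 (−0.261 to 0.0187 without siAXL 1). The median of the members stayed negative in every setting, from −0.12 to −0.0404 with 1 library left out, and AXL kept its call, from −2.07 to −1.79.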
